A study of Mus musculus with 4 samples.

Results

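The microtubule motors of Purkinje cells, the output neurons of the cerebellar cortex, were examined as 63 genes of 18193 named genes on the array. They were the genes whose symbol marks a kinesin (Kif), a kinesin light chain (Klc), a dynein subunit (Dync, Dynl) or a dynactin subunit (Dctn), and 146 probe sets measured them. By role they fell into 23 transport kinesins and light chains, 19 genes of dynein and dynactin, 14 mitotic kinesins and 7 ciliary and other kinesins. Klc2 was not analysed here.

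Laser capture took the cells from frozen brains of intact C57BL/6J males aged 8 weeks, and the labels name no treatment, transgene or mutant allele. Both animals gave 2 samples, so the single group holds 4, called 1-1 and 1-2 (animal 1) and 2-1 and 2-2 (animal 2), and values are always given in that order. Whether the samples of an animal came from separate captures is not stated, and p-values measure only the spread between these samples, which may be technical. The RNA, of about 1 ng per sample, passed through a 2-cycle amplification before hybridization to Affymetrix arrays. Precision is limited by the small number of arrays.

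Kinesins and dyneins are enzymes that walk along microtubules with cargo, using the energy of ATP. Most kinesins walk towards the plus end, which points outward in axons, and cytoplasmic dynein walks towards the minus end with the help of its activator complex, dynactin. Another part of the kinesin family builds and separates the mitotic spindle and has its main known use in dividing cells, whereas a Purkinje cell is postmitotic and serves a very large dendritic tree and a long axon.

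Signals are linear array intensities as deposited. Levels are log2 signals after quantile normalization, given as the mean and SD over 2 animals, and each gene stands on its probe set with the highest mean level. Probe sets respond differently to the same amount of RNA, so the levels of different genes describe the array and are not set against each other. A gene was counted as above background when it passed, on all 4 arrays, a bound set by 83 genes typical of non-brain organs (their 95th percentile), which was 5.67 to 6.03 on the log2 scale. In captured cells a lower level can come from fewer cells of a type or from less RNA per cell, and these cannot be told apart.

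The arrays had median signals of 8.40 to 11.4, and animal 2 was the brighter one, also in 9 hybridization control probe sets (median ratio 1.93). The 3′ over 5′ signal ratio of the Gapdh control was 9.09 to 11.4 in animal 1 and 6.26 to 8.45 in animal 2. That of Actb was 35.3, 28.1, 9.86 and 24.6, lowest in sample 2-1, and the part of RNA quality in any motor difference was not tested. Purkinje cell markers were above the bound in 10 of 10 measured cases. Markers of other cells passed as well: 8 of 10 Bergmann glia and astrocyte genes (80%) and 4 of 8 granule cell genes (50%). Smaller shares were those of oligodendrocytes (2 of 7, 28.6%), interneurons (2 of 6, 33.3%) and blood vessels (2 of 8, 25%). Microglia had 1 of 8 (12.5%) and choroid plexus and ependyma 1 of 6 (16.7%). Among all named genes 27.8% passed, so only the glia and granule cell lists stood well above that share. The part that RNA of these cells had in any motor signal was not tested.

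Of the 63 motor genes, 24 (38.1%) lay above the bound on all 4 arrays, against 27.8% of all named genes. A further 8 passed on some arrays only, and 31 failed everywhere, as did 55.9% of all genes. Dynein and dynactin passed in 13 of 19 cases and transport kinesins in 10 of 23, while mitotic kinesins passed in 1 of 14 and ciliary and other kinesins in 0 of 7.

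**Figure D1:**
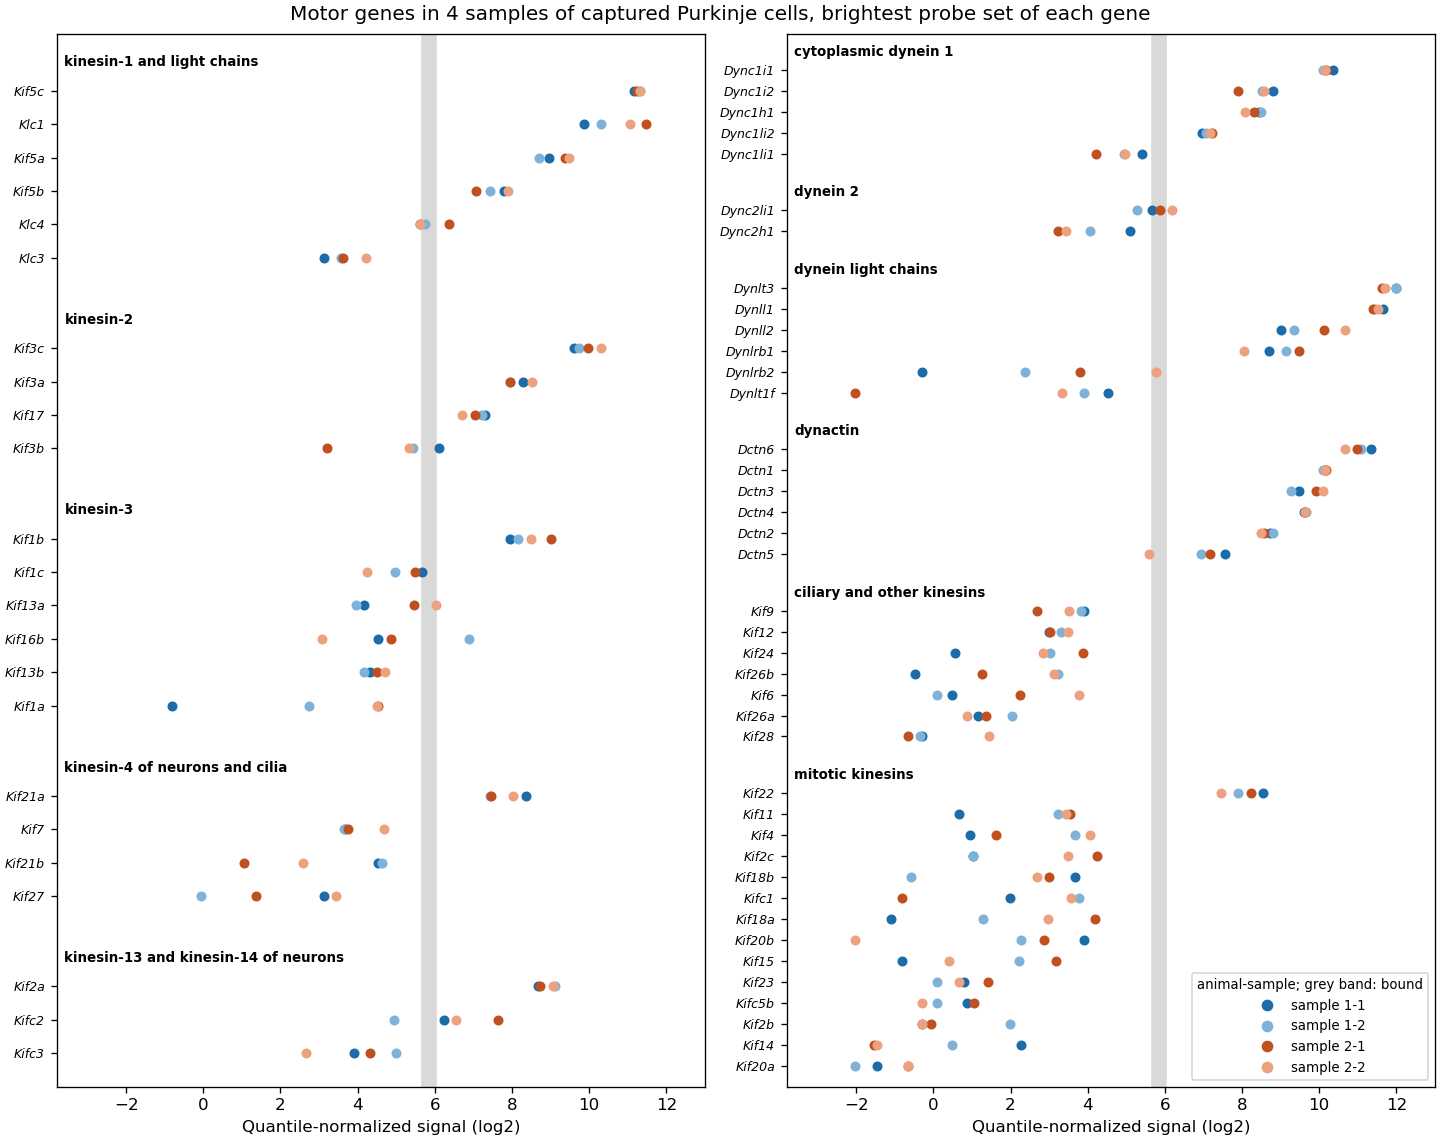
Quantile-normalized log2 signals (horizontal axis) of the 63 motor genes in the 4 samples (coloured points), each on its brightest probe set and sorted by role; the grey band spans the background bounds of the arrays, 5.67 to 6.03. Dynein, dynactin and kinesin-1 genes lie mostly to the right of the band, and 13 of 14 mitotic kinesins lie to its left.

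Kinesin-1 is the main motor of fast axonal transport, made of a heavy chain (Kif5a, Kif5b or Kif5c) and a light chain (Klc) that holds cargo. All 3 heavy chains were above the bound on every array. Kif5c, a neuronal heavy chain, had signals of 1965, 2192, 2560 and 3259 and a level of 11.26 ± 0.03 (SD, n = 2 animals). The deposited signals follow the brightness of the arrays, and the animals overlapped once normalized. Kif5a, the heavy chain mutated in a form of hereditary spastic paraplegia, had signals of 417, 353, 716 and 922 and a level of 9.13 ± 0.42, with both samples of animal 2 above both of animal 1. Kif5b, the heavy chain found in most tissues, had signals of 182, 142, 149 and 320 and a level of 7.54 ± 0.09, and the normalized samples of the animals overlapped. Klc1, the light chain best known from neurons, had signals of 794, 1104, 2984 and 2696 and a level of 10.67 ± 0.82, the widest gap between the animals among kinesins above the bound. Klc4 passed on 2 arrays (5.84 ± 0.22) and Klc3 on none, with signals of 7.80, 10.8, 12.5 and 22.9.

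Kinesin-2 works in dendrites, axons and cilia as a heterotrimer of Kif3a with Kif3b or Kif3c, and as the homodimer Kif17, which carries receptors in dendrites. Kif3c had signals of 656, 724, 1077 and 1617 and a level of 9.91 ± 0.34 (SD, n = 2 animals), and Kif3a had 257, 203, 272 and 481 and a level of 8.17 ± 0.08. Kif3a was above the bound on all 4 arrays with each of its 4 probe sets, Kif3c with both of its own. The Kif3c probe sets ran in opposite directions between the animals. As log2 differences, animal 2 minus animal 1, they stood at 0.48 (1448946_at) and -0.35 (1434947_at), and neither was called. Kif3b passed on 1 array, with signals of 55.8, 36.4, 9.40 and 53.2. Sample 2-1 was the lowest by far there, and none of the 4 Kif3b probe sets passed on all arrays. Kif17 was at 128, 123, 147 and 141 (level 7.07 ± 0.27). The accessory subunit Kifap3, which joins the Kif3 pair to cargo, was measured among the adaptor genes and had signals of 1857, 1528, 1963 and 3135.

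Kinesin-3 motors carry synaptic vesicle precursors, dense core vesicles and mitochondria. Kif1b, of this family, passed the bound on all 4 arrays with 2 of its 7 probe sets: its brightest had signals of 204, 237, 554 and 472 (level 8.40 ± 0.48, SD, n = 2 animals) and the next 327, 307, 279 and 423. Normalized, the first was higher in both samples of animal 2 and the second, at 8.63, 8.52, 7.98 and 8.32, was lower in both, so the probe sets ran in opposite directions. Neither difference was called. Kif1a, the motor of synaptic vesicle precursors, stayed below the bound on every array on both of its probe sets, with signals of 0.5, 6.20, 23.0 and 28.6 on the brighter. Kif1c (level 5.09 ± 0.33) and Kif13b (4.42 ± 0.25) were below it on every array as well. Kif13a (4.90 ± 1.18) and the endosome motor Kif16b (4.84 ± 1.23) each passed on 1 array, Kif13a in sample 2-2 and Kif16b in sample 1-2, where its signal was 97.7 against 10.2 to 29.7 in the other samples.

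Kif21a, a kinesin-4 known for restraining microtubule growth, had signals of 270, 142, 195 and 347 (level 7.82 ± 0.11, SD, n = 2 animals). Its paralog Kif21b (20.3, 21.7, 2.00 and 7.10) and the Hedgehog pathway regulator Kif7 (11.6, 11.4, 13.4 and 32.9) were below the bound on every array, as was Kif27, at 7.80, 0.9, 2.40 and 13.1. Kif2a, a kinesin-13 that takes microtubule ends apart and prunes axon branches, had signals of 336, 469, 462 and 711 and a level of 8.90 ± 0.01. Its animal means were nearly equal. Among minus-end kinesins, Kifc2 had signals of 61.1, 26.7, 222 and 125 and passed on 3 arrays, failing in sample 1-2. Kifc3 passed on none (13.6, 27.5, 19.8 and 7.60).

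Cytoplasmic dynein 1 carries most cargo towards the cell body. Its heavy chain, Dync1h1, the subunit with the motor, had signals of 282, 301, 348 and 359 (level 8.33 ± 0.18, SD, n = 2 animals). The intermediate chains, which link it to dynactin, were above the bound on every array too. Dync1i1, the neuronal one, had signals of 1115, 950.4, 1244 and 1443 (10.20 ± 0.04), and Dync1i2 had 369, 308, 262 and 496 (8.44 ± 0.30). The animals overlapped for both. Of the light intermediate chains, Dync1li2 passed on every array (101.4, 110, 166 and 195), and Dync1li1 on none (35.0, 26.8, 18.3 and 41.0). Dynein 2, the retrograde motor of cilia, gave little signal: its heavy chain Dync2h1 was at 28.7, 15.0, 9.60 and 13.1, below the bound throughout, and Dync2li1 was at 41.5, 33.2, 64.0 and 97.7 and passed in both samples of animal 2.

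The dynein light chains, small dimers at the tail of the complex, passed in 4 of 6 cases. Dynlt3 had signals of 3547, 3565, 3361 and 4146 (level 11.83 ± 0.23, SD, n = 2 animals), and Dynll1, which also binds many proteins outside dynein, had 2786, 2414, 2878 and 3677 (11.50 ± 0.07). Each was above the bound on all arrays with 3 of 4 probe sets. Dynll2, a close relative of Dynll1, had signals of 430, 557, 1191 and 2091 and a level of 9.79 ± 0.86, the widest gap between the animals among the 24 genes. Dynlrb1 was at 345, 483, 757 and 353, with sample 2-1 the highest. Dynlrb2 ran from 0.7 to 74.1 and passed in sample 2-2 alone, and Dynlt1f (0.3 to 20.2) passed on none.

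Dynactin activates dynein and tethers it to the microtubule. Its subunits passed on all 4 arrays in 5 of 6 cases. Dctn6 had signals of 2196, 1868, 2160 and 2091 (level 11.02 ± 0.27, SD, n = 2 animals). Dctn1, the p150 subunit that grips microtubules and is mutated in a motor neuron disease, had signals of 971, 954, 1226 and 1454 (10.15 ± 0.02), and its normalized samples lay within 10.11 and 10.16. This holds for 1435414_s_at, a kind of probe set that can bind several transcripts. The other Dctn1 probe set, 1422521_at, had levels of 5.38, 4.82, 6.31 and 6.58 and passed only in the 2 samples of animal 2. Dctn3 (595, 529, 1037 and 1400, level 9.69 ± 0.45) was higher in both samples of animal 2. Dctn4 (9.63 ± 0.002) and Dctn2 (8.64 ± 0.17) were above the bound as well. Dctn5 had signals of 154, 99.7, 160.5 and 64.2 and failed in sample 2-2.

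The mitotic kinesins were near the floor of the array. In 13 of 14 of them every sample stayed below the bound, and no deposited signal on their brightest probe sets exceeded 20.7. Among these were Kif11, the Eg5 motor that pushes spindle poles apart (1.40, 8.60, 11.8 and 13.1), Kif23 of the central spindle (1.5, 1, 2.5 and 1.9) and Kif20a (0.3, 0.2, 0.7 and 0.8). Kifc1 and Kifc5b are near-identical copies whose signals may be shared, and neither passed. The exception was Kif22, a chromosome-binding kinesin, with signals of 307, 196, 335 and 235 (level 8.03 ± 0.25, SD, n = 2 animals). This rested on 1437716_x_at, a kind of probe set that can bind several transcripts. Its 2 other probe sets had levels of 1.71 and 1.60 and were below the bound on every array. Of 19 proliferation genes, 2 passed, Cdc20 (732, 644, 295 and 288) and Pcna (82.9, 231, 193 and 87.9), while Mki67 and Top2a were below the bound throughout. Cdc20, like Kif22, rested on an x probe set, which can bind several transcripts, and Pcna did not. With probe sets that can bind several transcripts left out, 1 proliferation gene passed. The ciliary and other kinesins Kif6, Kif9, Kif12, Kif24, Kif26a, Kif26b and Kif28 had signals of at most 16.7.

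Because 13 of 14 mitotic kinesins were below the bound, promoters of the motor genes were compared between the roles, whether or not a gene passed it. The comparison was thus prompted by these levels, and a link between promoter letters and level was not tested. The windows were the 250 bases before each start listed in RefSeq (GRCm38.p6), with 50 of the 63 genes matched. A gene with several listed starts was counted where any of its promoters held the letters. The values for all promoters count each promoter by itself, so the units differ. Promoters of genes that peak at mitosis are known for CCAAT boxes and for the cell cycle homology region. The letters CCAAT, on either strand, stood in 9 of 13 matched mitotic kinesins, in 6 of 17 transport kinesins, in 5 of 14 dynein and dynactin genes and in 33.8% of all 32851 promoters of the table. Among the 9 are the near-identical copies Kifc1 and Kifc5b, whose windows are largely the same sequence and so are not separate cases. TTTGAA, the letters searched for the homology region, stood in 5 of 13 mitotic kinesins, 2 of 17 transport kinesins, 1 of 14 dynein and dynactin genes and 5252 of all promoters. A GC box (GGGCGG) stood in 6, 12 and 9 of the same genes and 32.7% of all promoters, and a TATA box (TATAAA) in 1, 2 and 0 and in 12.4%. Among the 18 matched motor genes above the bound, CCAAT stood in 6, TTTGAA in 2, the GC box in 10 and the TATA box in 1. CCAAT and TTTGAA stood together in 3 of 13 mitotic kinesins (Kif11, Kif14 and Kif22), in 1 of 17 transport kinesins (Kif27), in 0 of 14 dynein and dynactin genes and in 1823 of all promoters. No motif is contained in another, each was counted by itself, and a match describes letters, not a bound factor. Whether each listed start is where transcription begins, rather than a later exon, was not tested. This includes the windows of Kif14, Kif27, Kif1a and Kif2c that hold TTTGAA, all of which end in AG. The promoters below show a mitotic kinesin at background, the mitotic kinesin that passed, and a transport kinesin and a dynein light chain well above the bound. They lie at chr19:37376132-37376381 (plus strand), chr7:127042421-127042670 (minus strand), chr2:49619036-49619285 (plus strand) and chrX:9662984-9663233 (minus strand). Capitals mark CCAAT and TTTGAA on either strand, so that ATTGG and TTCAAA are the same motifs read from the other strand.
Kif11: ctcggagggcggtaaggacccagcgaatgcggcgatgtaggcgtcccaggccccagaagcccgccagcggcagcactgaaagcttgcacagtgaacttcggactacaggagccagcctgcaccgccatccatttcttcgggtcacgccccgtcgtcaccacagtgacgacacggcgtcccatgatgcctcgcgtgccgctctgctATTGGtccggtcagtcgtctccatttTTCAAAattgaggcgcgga
Kif22: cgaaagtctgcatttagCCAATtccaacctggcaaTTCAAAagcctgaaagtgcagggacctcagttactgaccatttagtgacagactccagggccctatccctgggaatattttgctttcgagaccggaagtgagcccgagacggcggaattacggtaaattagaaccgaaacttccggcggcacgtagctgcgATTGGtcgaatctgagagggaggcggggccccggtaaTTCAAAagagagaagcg
Kif5c: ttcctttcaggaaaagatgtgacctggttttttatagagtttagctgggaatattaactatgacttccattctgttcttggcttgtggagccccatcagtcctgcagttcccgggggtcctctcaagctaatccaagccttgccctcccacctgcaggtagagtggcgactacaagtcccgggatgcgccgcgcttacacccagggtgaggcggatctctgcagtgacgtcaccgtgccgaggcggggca
Dynlt3: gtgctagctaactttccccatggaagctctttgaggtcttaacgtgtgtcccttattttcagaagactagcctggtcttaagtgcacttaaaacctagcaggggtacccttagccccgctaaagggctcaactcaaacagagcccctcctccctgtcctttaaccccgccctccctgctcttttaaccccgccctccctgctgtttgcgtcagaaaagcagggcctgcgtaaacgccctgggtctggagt
Kif11 and Kif22 were printed because they hold both motifs, as most mitotic kinesins do not, and Kif5c and Dynlt3 hold neither.

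The other genes of the transport system were read from lists. Cargo adaptors and dynein regulators passed on all 4 arrays in 22 of 36 cases (61.1%, against 27.8% of all genes). Besides Kifap3 (level 10.997 ± 0.07, SD, n = 2 animals), those that passed included Spag9, a scaffold between motors and kinases (1329, 1572, 2042 and 2088), and the dynein regulator Ndel1 (461, 563, 1189 and 1293), which was higher in both samples of animal 2. The mitochondrial adaptor Trak2 and its membrane anchor Rhot1 passed as well, at levels of 7.37 ± 0.38 and 7.11 ± 0.05. Hook2 was below the bound on every array, at 1.5, 1.2, 40.2 and 0.7. Tubulins, microtubule-associated proteins and end binders passed in 23 of 35 cases (65.7%), among them the tubulins Tuba4a (12.69 ± 0.08) and Tuba1a (12.17 ± 0.12) and the end-binding gene Mapre2 (11.86 ± 0.07). Doublecortin (Dcx), a marker of young migrating neurons, was below the bound throughout, at 1.40, 6.60, 3.70 and 9.20.

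Intraflagellar transport genes, whose cargo trains kinesin-2 and dynein 2 move in cilia, passed in 10 of 22 cases (45.5%). Ift57 was at 10.55 ± 0.09, Ift27 at 9.52 ± 0.13 and Ift122 at 8.77 ± 0.49 (SD, n = 2 animals), and Wdr35 was below the bound throughout, at 2.83 ± 2.01. Actin-based myosin motors passed in 6 of 20 cases (30.0%), close to all genes. Myh10, a nonmuscle myosin, was at 10.95 ± 0.36 and Myh9 at 8.80 ± 0.66. Myo5a, the dilute myosin that brings endoplasmic reticulum into Purkinje cell spines, had signals of 488, 458, 438 and 1132, and normalized levels of 9.20, 9.08, 8.65 and 9.77, which overlapped between the animals. Myo1f (0.3 to 14) was below the bound throughout.

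**Figure D2:**
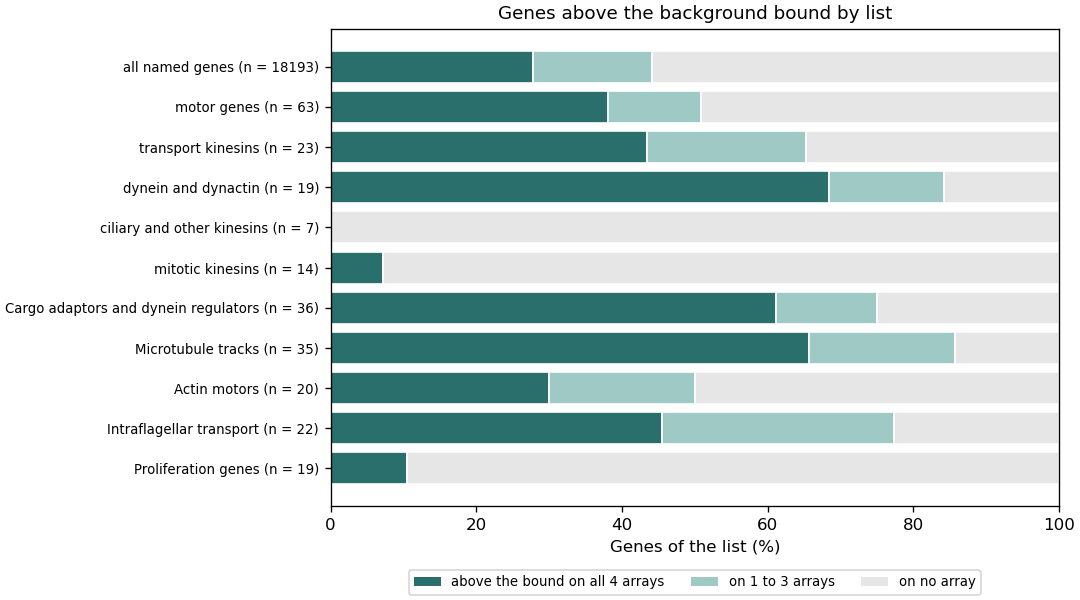
Share of genes (horizontal axis, percent) that passed the background bound on every array, on some arrays (1 to 3) or nowhere, for all named genes, the motor genes by role and the related lists; n is the number of measured genes. Dynein and dynactin reach 68.4% on all 4 arrays, mitotic kinesins 7.14% and all named genes 27.8%.

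The counts depended on which probe set stood for a gene. Of the 24 motor genes above the bound, 19 had several probe sets, and in 12 of these some probe set failed on every array. Kif5a is an example: 1434670_at was at a level of 9.13, and its 2 other probe sets were at 2.05 and 0.36. Dctn4 passed with 1 of 6 probe sets. By contrast, Kif3a, Kif3c, Dctn6 and Dynll2 passed with every probe set they had. With the median over probe sets in place of the brightest, 16 motor genes passed (25.4%, against 18.7% of all genes). These were 12 of 19 dynein and dynactin genes and 4 of 23 transport kinesins, the latter close to the share of all genes. The 23 transport kinesins had 72 probe sets, and all 18193 named genes had 34945. The 9 genes lost were Kif5c, Kif5a, Klc1, Kif1b, Kif2a, Kif17, Kif22, Dctn4 (level 3.53) and the dynein heavy chain Dync1h1 (4.90), and Dctn5 was gained. With probe sets that can bind several transcripts left out, 19 of 55 genes still measured passed (34.5%, against 24.4% of all genes), all among the 24, and Dctn1, Kif17 and Kif22 were lost. Dync1i1 and Dynlrb1, also among the 24, had no other probe set and were no longer measured.

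**Figure D3:**
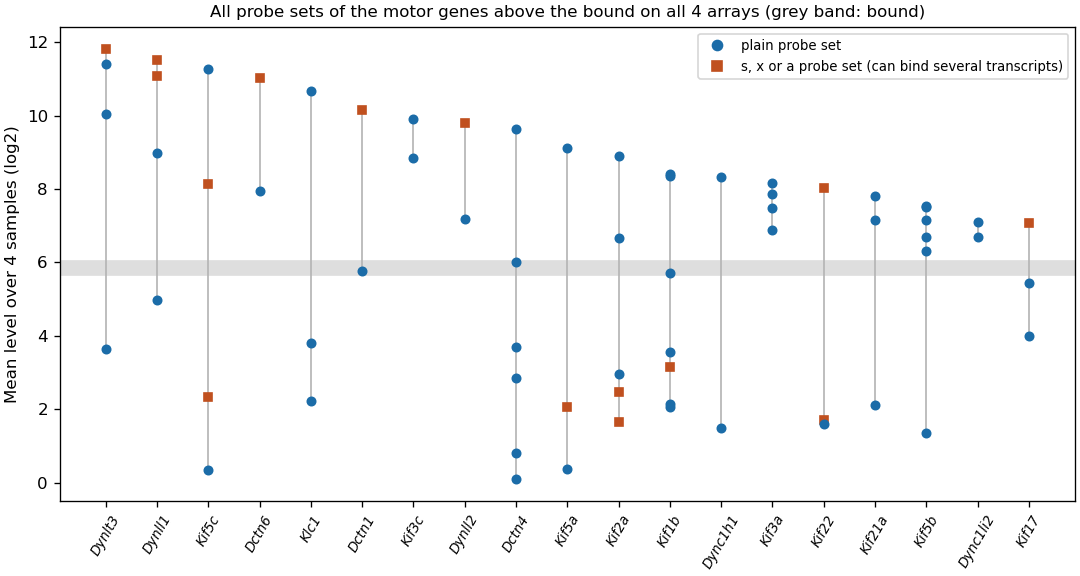
Mean level over 4 samples (vertical axis, log2) of every probe set of the 19 motor genes above the bound that have several. Squares are s, x or a probe sets, which can bind several transcripts, and the grey band spans the bounds. Kif3a lies above the band throughout, whereas Kif5c, Klc1, Kif5a and Kif22 have probe sets on both sides.

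The samples of the motor genes were then compared within and between the animals. Over the 24 genes, the median absolute log2 difference was 0.24 between samples 1-1 and 1-2 and 0.32 between 2-1 and 2-2. Across animals the medians of the pairs were 0.24 to 0.41. Averaged, the difference was 0.06 larger between than within animals for motor genes and 0.11 larger for all 5060 genes above the bound. The median SD over animals was 0.18 for motor genes and 0.24 for all of these genes.

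Between the animals, no motor probe set was called. Of 51 tested, 0 passed an adjusted p of 0.05 in limma with Benjamini-Hochberg adjustment over all 10901 probe sets, of which 0.321% were called, and 7 had an unadjusted p under 0.05, against 17.6% of all probe sets (8.48% higher and 9.16% lower in animal 2). Of these 7, 5 were higher in animal 2 and 2 lower. Klc1 came closest, with a log2 difference, animal 2 minus animal 1, of 1.16 ± 0.21 (SE, n = 2 samples per animal, limma, adjusted p = 0.0742). Its levels were 9.88, 10.32, 11.46 and 11.04, so the animals did not overlap, and its 2 other probe sets were below the bound. Dynll2 followed at 1.21 ± 0.24 (adjusted p = 0.0957) on 1418258_s_at, with levels of 9.02, 9.34, 10.12 and 10.67. Its other probe set, 1418371_at, stood at -0.67 ± 0.39 (adjusted p = 0.424), in the opposite direction. Dctn3 stood at 0.63 ± 0.19 (adjusted p = 0.178). The smallest p among lower probe sets were those of Dynlt3 (-0.33 ± 0.08, adjusted p = 0.134, and -0.41 ± 0.18, adjusted p = 0.309, on 1459854_s_at and 1420614_at) and Dctn6 (-0.39 ± 0.15, adjusted p = 0.262).

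The calls near the threshold depended on the fit. Klc1 and Dynll2 were called when the fit held only probe sets that passed on every array (adjusted p = 0.0323 and 0.0427) and on signals as deposited (adjusted p = 0.0203 and 0.0333), where all probe sets tested were 0.47 higher in animal 2 at the median. They were also called without sample 2-1 (adjusted p = 0.0369 and 0.0190) or 2-2 (adjusted p = 0.0203 and 0.0440), when the residual spread comes from the animal 1 pair alone. Without sample 1-1 the limma adjusted p were 0.392 and 0.579, and without 1-2 they were 0.305 and 0.462.

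**Figure D4:**
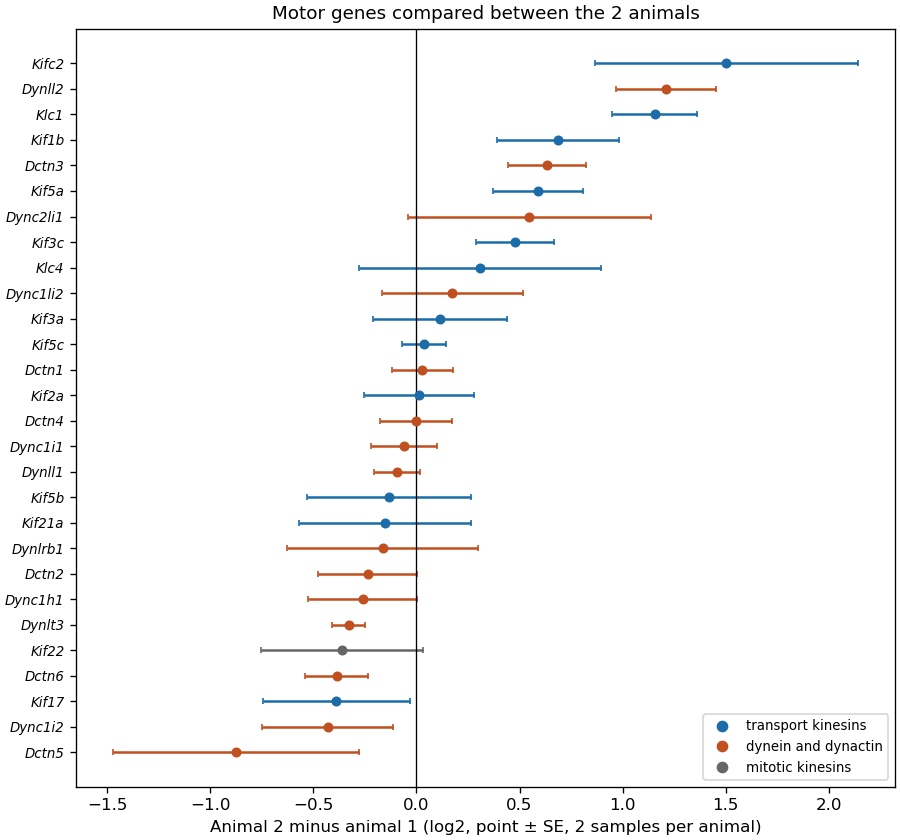
Difference of animal 2 minus animal 1 (horizontal axis, log2, point ± SE, 2 samples per animal) for the brightest probe set of the 28 motor genes tested. Klc1, Dynll2 and Kifc2 lie farthest to the right, Dctn5 farthest to the left, and none was called.

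In direction the motor genes were split evenly. Of the 28 genes tested on their brightest probe set, 14 stood higher in animal 2 and 14 lower, with a median of 0.01 against -0.05 over all probe sets. The transport kinesins stood higher in 9 of 12 cases (median 0.21) and the dynein and dynactin genes in 5 of 15 (median -0.09). This difference between the roles was not tested, and the signs of some genes depended on the probe set. Where the next brightest probe set was also tested, its sign was opposite for Kif1b, Kif2a, Kif3c, Kif5b, Kif5c, Kif21a, Dync1li2 and Dynll2. It was the same for Kif3a, Dctn1, Dctn4, Dctn5, Dctn6, Dynll1 and Dynlt3, though the Dctn1 differences were 0.03 on the brightest probe set and 1.35 on the next. Samples of the animals did not overlap in 13 of the 24 genes above the bound, with 8 higher in animal 2 and 5 lower. Over all 5060 genes above the bound, 23.0% were higher without overlap and 27.4% lower. On signals as deposited the motor gene counts were 16 higher and 0 lower, against 57.4% and 5.55% of all these genes. The lower direction of Dctn2, Dctn6, Dync1h1, Dynlt3 and Kif17 thus holds relative to the rest of the array. Markers of other cells differed between the animals. For granule cells the summed level was 11.93 and 12.27 in animal 1 and 10.75 and 10.93 in animal 2, with 6 of 8 genes lower and none at 0. Of these 8, Slc17a7, Pax6 and Zic2 were below the bound throughout, the last of them among the 6. Summed Bergmann glia and astrocyte markers were at 13.73 to 13.77 in animal 1 and 13.33 to 13.49 in animal 2, and Purkinje cell markers at 16.11 to 16.12 and 16.22. Summed markers of oligodendrocytes (12.12 to 12.21 against 11.58 to 11.91), blood vessels (9.59 to 9.64 against 8.85 to 8.97), microglia (7.77 to 8.09 against 7.24 to 7.30) and choroid plexus and ependyma (9.18 to 9.19 against 8.87 to 8.96) were also lower in animal 2, without overlap. In the last pair of lists, however, 6 of 8 and 4 of 6 genes stood higher in animal 2. Interneuron markers overlapped. Their part in the differences of motor genes was not tested.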

How the data were processed

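The authors deposited linear intensity values, one for each probe set on each array. Per the submitters' processing notes they come from GCOS, whose algorithm and scaling target the sources used here do not give. The table held 45101 probe sets, 64 of them controls, and no columns of other samples (0). Of the rest, 34945 had 1 gene symbol in the platform annotation, 932 had several and 9160 had none and stayed unnamed. All 63 motor symbols matched RefSeq by gene identifier.

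Signals below 0.1 were set to 0.1 and log2 was taken. The arrays' means, trimmed by 2% at each end, differed by 46.6% of their average, above the limit of 5%, so quantile normalization in limma 3.58.1 (R 4.3.3) was used. The bound came from 83 of 89 listed organ genes, of which 3 (Krt1, Krt10 and Tff1) passed it on all 4 arrays. Animals were compared with limma's lmFit and eBayes (trend by mean level, 2 residual degrees of freedom), on the 10901 probe sets that passed the bound on 2 or more arrays. The steps were tested on simulated data. The members and lists were chosen with earlier results of these data known.

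All motor genes could be named. Signals were given for the 2 highest and the lowest of each role, all of small roles, the 3 smallest p in each direction between animals, and other members chosen after their values were seen. In related lists the 3 highest and the lowest were named, and Trak2, Rhot1, Mki67 and Top2a after their values were seen.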

Additional observations from a re-analysis of the deposited data

Results flagged for a closer look

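In 5 of 83 levels checked, 1 of the 4 samples stood apart from the others, with a gap to its nearest neighbour that, as a share of the whole range, is above Dixon's 95% critical value for 4 samples; chance gives about 5%. Dctn1 was at 10.16, 10.11, 10.16 and 10.16, with sample 1-2 lowest and a gap of 0.913 of a range that is itself very small. The other levels belonged to genes below the background bound on every array. Kif7 was at 3.68, 3.65, 3.74 and 4.68 (0.914, sample 2-2 highest). Kif11 was at 0.67, 3.24, 3.54 and 3.44 (0.897, sample 1-1 lowest). Kif2b was at -0.30, 1.99, -0.05 and -0.30 (0.894, sample 1-2 highest). Kif28 was at -0.30, -0.34, -0.64 and 1.44 (0.833, sample 2-2 highest).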

How the results depend on the processing

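The count of motor genes above the bound ran from 16 to 29 over the alternatives tried, and the share of all genes moved too: 29 (46.0%) passed against 41.4% of all genes with the 90th percentile bound, 23 (36.5%) against 19.9% with the 99th and 16 (25.4%) against 18.7% with the median over probe sets, and the 24 genes were kept under the 90th percentile bound, under the other normalizations and without any 1 sample. With the 99th percentile bound the 23 were all among the 24, while the related lists fell from 63 genes to 40. Adaptors fell from 22 to 10 of 36 and intraflagellar transport from 10 to 6 of 22, and the share of all genes from 27.8% to 19.9%. With the median over probe sets the related lists also stood at 40, against 18.7% of all genes. They held 11 of 36 adaptors, 15 of 35 track genes, 3 of 20 actin motors and 1 of 19 proliferation genes, and mitotic kinesins stood at 0. Intraflagellar transport stood at 17 of 22 with the 90th percentile bound (41.4% of all genes) and 16 of 22 with passes on at least 2 arrays (37.8% of all genes). With probe sets that can bind several transcripts left out it stood at 6, against 24.4% of all genes. How many of the 22 were still measured then is not given here. The median level of motor genes, 4.88, was 5.58 with an offset of 16 and 3.49 with the median over probe sets. The count of motor probe sets called between animals, 0, was 3 on deposited signals, 2 with the bound passed on all 4 arrays and 0 to 4 when 1 sample was left out, where the lone sample of an animal is assumed to vary like the other pair. It stayed 0 with the remaining scaling, no filter, no trend and the offset. Over all probe sets 35 were called, against 607 on deposited signals, 183 with the stricter filter, 55 with the offset, 5 with no filter, 0 without the trend and 2 to 1018 with 1 sample left out. On deposited signals Dynlt3 turned to 0.0698 and 0.0394 on its probe sets and Dctn6 to 0.0696. With the second sample number as a replicate block, 2 motor probe sets and 260 in all were called (Klc1, adjusted p = 0.0117, and Dynll2, adjusted p = 0.0168, limma); that number only names samples, and differences between samples 1 and 2 correlated at 0.0084 between the animals. The excess of the spread between animals over that within, 0.06, was 0.21 on deposited signals, 0.15 over all motor genes and 0.0029 to 0.13 with 1 sample left out, the highest without 2-1. The causes of these shifts were not tested. Genes near the bound of about 6 on the log2 scale are where the signal over background limits the counts.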

Other observations

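The Dynlt1 family, near-identical copies of a dynein light chain that also meets viral and membrane proteins, was read mainly by probe sets that name several genes at once and stayed outside the counts. The probe set 1428116_a_at, shared by Dynlt1a, Dynlt1b, Dynlt1c and Dynlt1f, had signals of 610.3, 447, 407 and 643 and was above the bound on all 4 arrays, as was 1453473_a_at (92.2, 74.9, 77.2 and 134). The probe set 1455748_at, shared by Dynlt1a, Dynlt1c and Dynlt1f, had signals of 1.00 to 17.9 and passed on none. Among proliferation genes, Cdc20, which also acts in neurons after division, stood lower in animal 2 by 1.76 on the log2 scale. The difference (-1.76, adjusted p = 0.0559, limma, n = 2 samples per animal) was not called, and the signals of Cdc20 did not overlap between the animals. They were read on an x probe set, which can bind several transcripts, and the part of other transcripts in them was not tested.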
